A study of Homo sapiens with 8 samples.

Results

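The cytosolic ribosomal protein genes encode the protein part of the ribosome that translates nuclear-encoded messages. They were taken by symbol: RPL or RPS followed by a number, with an A, L or X allowed after it, together with RPSA, RPLP0, RPLP1 and RPLP2. Pseudogenes and entries for second copies of a gene were left out. This gave 81 of 50006 genes, of which 49 encode proteins of the large subunit and 32 proteins of the small subunit. Their RNA was sequenced from BEAS-2B, an immortalised line from human bronchial epithelium, labelled wild type in every group and kept in LHC-9 medium without serum. FBG cells received fibrinogen, FCP cells received Der m 1-derived FCPs and aC cells received the αC domain of fibrinogen, each at 4 ng/µl for 4 h, and Mock cells received PBS. The labels do not expand FCP, and the αC domain is attributed in the title of the series to a mite allergen. Each group holds 2 libraries (8 in all) of a single cell line. The labels number them as biological replicates and do not say whether they came from separate cultures, so each p-value rests on the spread between the libraries at hand, and that spread may be technical. The study asked about genes of cell adhesion.

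The small subunit of the ribosome reads the messenger RNA and the large subunit joins the amino acids. Nearly all ribosomal proteins are needed in equal numbers, and their messages are among the most abundant in growing cells. Most of these messages begin with a cytosine followed by a run of pyrimidines, the 5′ terminal oligopyrimidine (TOP) motif, through which the kinase mTOR and the RNA-binding protein LARP1 control their translation and stability.

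The annotated starts of genes with strong and with small falls are printed here because the run of pyrimidines is found among both. RefSeq promoter windows (GRCh38.p14) matched 64 of the 81 genes, and 46 of these, 71.9%, had a start with a cytosine opening a run of at least 5 pyrimidines, against 5.14% of all 27305 genes in the same table. The windows below hold 30 bases before the start and 20 from it, 5′ to 3′ on the strand of the gene, with the run of pyrimidines at the start in capitals. RPL28, RPL37A, RPL13A and RPS15 are shown because they were among the genes with the strongest falls in FCP cells.
RPL28, chr19:55385902-55385951, plus strand: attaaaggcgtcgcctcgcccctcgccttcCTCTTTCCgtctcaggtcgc
RPL37A, chr2:216498814-216498863, plus strand: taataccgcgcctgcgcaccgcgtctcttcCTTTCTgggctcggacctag
RPL13A, chr19:49487578-49487627, plus strand: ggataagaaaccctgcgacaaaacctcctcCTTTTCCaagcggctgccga
RPS15, chr19:1438366-1438415, plus strand: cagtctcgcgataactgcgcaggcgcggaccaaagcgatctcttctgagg
RPS6, RPS12, RPL21 and RPS21 are shown because their falls were among the smallest there. RPL17, which fell by 0.24 in FCP cells and is not printed, has an annotated start without the run.
RPS6, chr9:19380217-19380266, minus strand: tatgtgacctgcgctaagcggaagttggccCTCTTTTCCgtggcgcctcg
RPS12, chr6:132814539-132814588, plus strand: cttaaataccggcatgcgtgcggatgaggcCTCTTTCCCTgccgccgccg
RPL21, chr13:27251528-27251577, plus strand: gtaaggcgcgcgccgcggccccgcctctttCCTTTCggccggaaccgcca
RPS21, chr20:62387073-62387122, plus strand: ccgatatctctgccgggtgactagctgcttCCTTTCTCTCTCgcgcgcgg
RPS27 and its paralog RPS27L are shown because a run of pyrimidines opens the annotated start of RPS27, and that of RPS27L has none.
RPS27, chr1:153990732-153990781, plus strand: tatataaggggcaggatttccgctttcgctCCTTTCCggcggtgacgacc
RPS27L, chr15:63157458-63157507, minus strand: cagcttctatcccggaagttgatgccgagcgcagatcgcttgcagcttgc
An annotated start is one base, and cells can start nearby, so a window without the run says only that these letters are not at that base.

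Total counts ranged from 15137196 to 22258791 per library, and FCP and aC libraries were deeper than FBG and Mock libraries. Markers of the labelled cell type differed between the groups. Summed over 12 epithelial marker genes, the level in CPM, counts scaled to a common library total with the trimmed mean of M-values (TMM), was 1160 to 1181 in FBG cells, 4628 to 4693 in FCP cells, 4627 to 4705 in aC cells and 1311 to 1319 in Mock cells. Keratin 5 averaged 7.28 CPM in FBG cells, 1581 CPM in FCP cells, 1603 CPM in aC cells and 2.03 CPM in Mock cells. The epithelial regulators TP63 and GRHL2 were under the floor of 3 counts, 0.181 CPM, in Mock cells. All 12 epithelial markers were called higher in FCP and in aC cells against Mock, while 7 of 10 tested mesenchymal markers were called lower and 2 higher in each. In FBG cells 5 epithelial markers were called higher and 3 lower, and 8 mesenchymal markers lower and 2 higher. Of all 16307 tested genes, 26.3% were called lower and 24.2% higher in FBG cells against Mock. The shares were 36.1% and 37.3% in FCP cells, and 36.7% and 38.0% in aC cells. Summed over 11 mesenchymal markers the level was 9826 to 9890 CPM in FBG cells, 9641 to 9646 in FCP cells, 8842 to 8858 in aC cells and 11640 in both Mock libraries. Blood markers summed to 11.8 to 32.7 CPM, with CD3E, HBA1, HBB and PPBP at 0 in every library. These marker levels moved with the 4 groups in the same libraries as the ribosomal protein results below, and their part in those results was not tested. Treatment and any other difference between the cultures of a group cannot be told apart here.

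As a share of all counts, the 81 genes took least in FCP and aC libraries. They held 3.74% and 3.69% of the counts in the FBG libraries, 2.94% and 2.92% in the FCP libraries, 2.96% and 2.94% in the aC libraries, and 4.20% and 4.16% in the Mock libraries. No group overlapped Mock, FBG lay between Mock and the other groups, and FCP and aC overlapped each other. The mean shares were 3.72 ± 0.0396% in FBG, 2.93 ± 0.0163% in FCP, 2.95 ± 0.00919% in aC and 4.18 ± 0.0247% in Mock (SD, n = 2 each), so that FBG had 0.889, FCP 0.702 and aC 0.706 of the Mock share. The 95% Wilson interval of each share was at most 0.0097 percentage points to either side and covers counting error only. In bulk RNA, fewer cells of a type and less of these messages per cell cannot be told apart. Counts of the large subunit genes exceeded those of the small subunit genes 2.54 ± 0.0283 times in FBG, 2.48 ± 0.0113 times in FCP, 2.47 ± 0.0099 times in aC and 2.57 ± 0.00707 times in Mock. Both subunits had a lower share in FCP and aC than in Mock. The order of the ratios was not stable, since with copy entries added FBG (2.44) lay below FCP (2.46), and per length FBG (2.35) lay above Mock (2.32). Rows of ribosomal protein pseudogenes held 0.208% to 0.288% as many counts as the 81 genes.

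**Figure D1:**
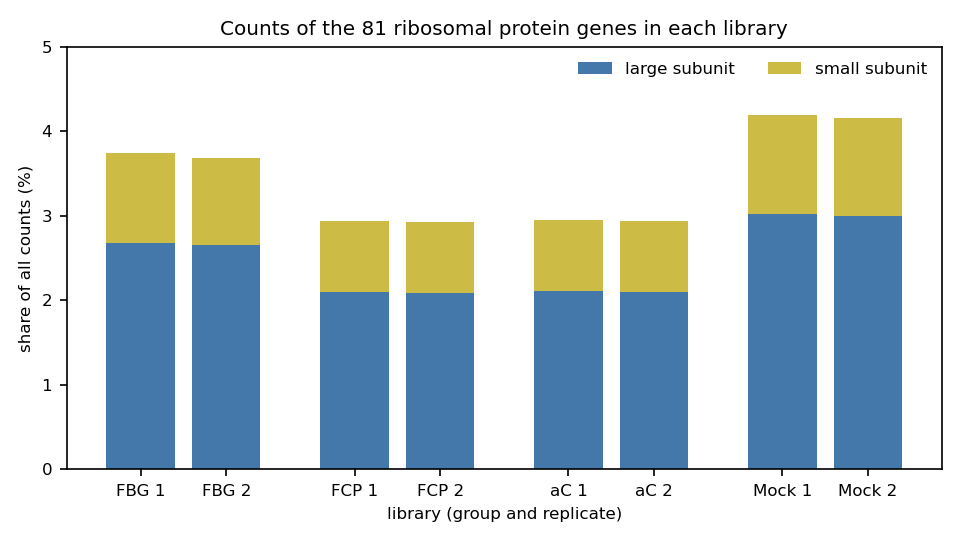
Share of all counts in percent (vertical axis) taken by the large subunit genes (lower bar part) and the small subunit genes (upper part) in each of the 8 libraries. The Mock bars reach 4.20% and 4.16%, and the FCP and aC bars stand between 2.92% and 2.96%.

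Levels between genes were compared per length, as CPM per kb of exon, averaged over the 8 libraries. In the large subunit RPL13A (1269 CPM per kb), RPL8 (1259) and RPL35 (1197) had the highest levels, and in the small subunit RPS6 (1107) had the highest. RPL13A is a large subunit protein that human myeloid cells also release from the ribosome to silence inflammatory messages. RPS6 is the substrate of the ribosomal S6 kinases downstream of mTOR. At the other end RPL3L and RPL10L, paralogs known from muscle and testis, had 0 counts in every library, which allows up to 0.135 CPM in the deepest libraries and 0.198 CPM in the shallowest. RPL36A had 0.226 and RPS27L 2.08 CPM per kb, the latter over 6110 bases of annotated exon. RPL7A (0.995) and RPS25 (0.0777) are genes with copy entries, which are described below. The length counts all annotated exons of a gene and can exceed that of its message, so these levels are approximate.

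Against Mock, nearly every measured ribosomal protein gene fell after each of the treatments, mildly in FBG cells and more strongly in FCP and aC cells. Of the 81 genes, 75 passed the low-count filter and were tested, 46 of the large and 29 of the small subunit. In FBG cells 65 of 75 were called lower and 0 higher, where 50.4% of all 16307 tested genes were called, 26.3% lower and 24.2% higher, by the same rule, an edgeR quasi-likelihood test with an adjusted p under 0.05. In FCP cells 71 were called lower and 1 higher, against 73.4% of all tested genes, 36.1% lower and 37.3% higher. In aC cells 72 were called lower and 0 higher, against 74.7%, 36.7% lower and 38.0% higher. By subunit, 42 of 46 large and 23 of 29 small subunit genes were lower in FBG cells, 45 and 26 in FCP cells, and 45 and 27 in aC cells. With scaling by library size alone, 55 genes were called lower and 5 higher in FBG (18.5% and 31.8% of all tested genes), 67 and 2 in FCP (27.6% and 47.1%), and 68 and 1 in aC cells (27.5% and 47.7%). By DESeq2 1 gene was higher in FBG cells. It was RPS3A, a gene with a copy entry, whose own counts in FBG came almost wholly from a single library.

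The sizes of the falls also ran together. The median log2 fold change of the tested genes was -0.29 in FBG, -0.78 in FCP and -0.76 in aC cells, each against Mock, where the median of all tested genes was 0.02, 0.06 and 0.06. The quartiles of the 75 genes lay at -0.37 and -0.21 in FBG, at -0.88 and -0.61 in FCP and at -0.90 and -0.58 in aC cells. Scaling by library size alone moved the median of all genes to 0.13, 0.28 and 0.29. Relative to the median of all genes the ribosomal protein genes stood at -0.30, -0.84 and -0.82 under both scalings. This is no separate check, because a change of scaling shifts all genes of a comparison nearly alike. With trends of GC content and length removed, the ribosomal protein genes stood at -0.13, -0.27 and -0.28 relative to the median of all genes. Of the 71 tested genes without a copy entry, 71 were called lower in FCP cells and 71 in aC cells, and 65 in FBG cells. For 70 of the 75 genes the FBG and Mock libraries did not overlap, and the same held for 74 in FCP and 73 in aC cells. The share of all tested genes without such overlap is not given here, so these counts cannot be read as particular to ribosomal protein genes. The other 6 genes, RPS18, RPS25, RPS9, RPL3L, RPL10L and RPL36A, had too few counts to be tested.

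**Figure D2:**
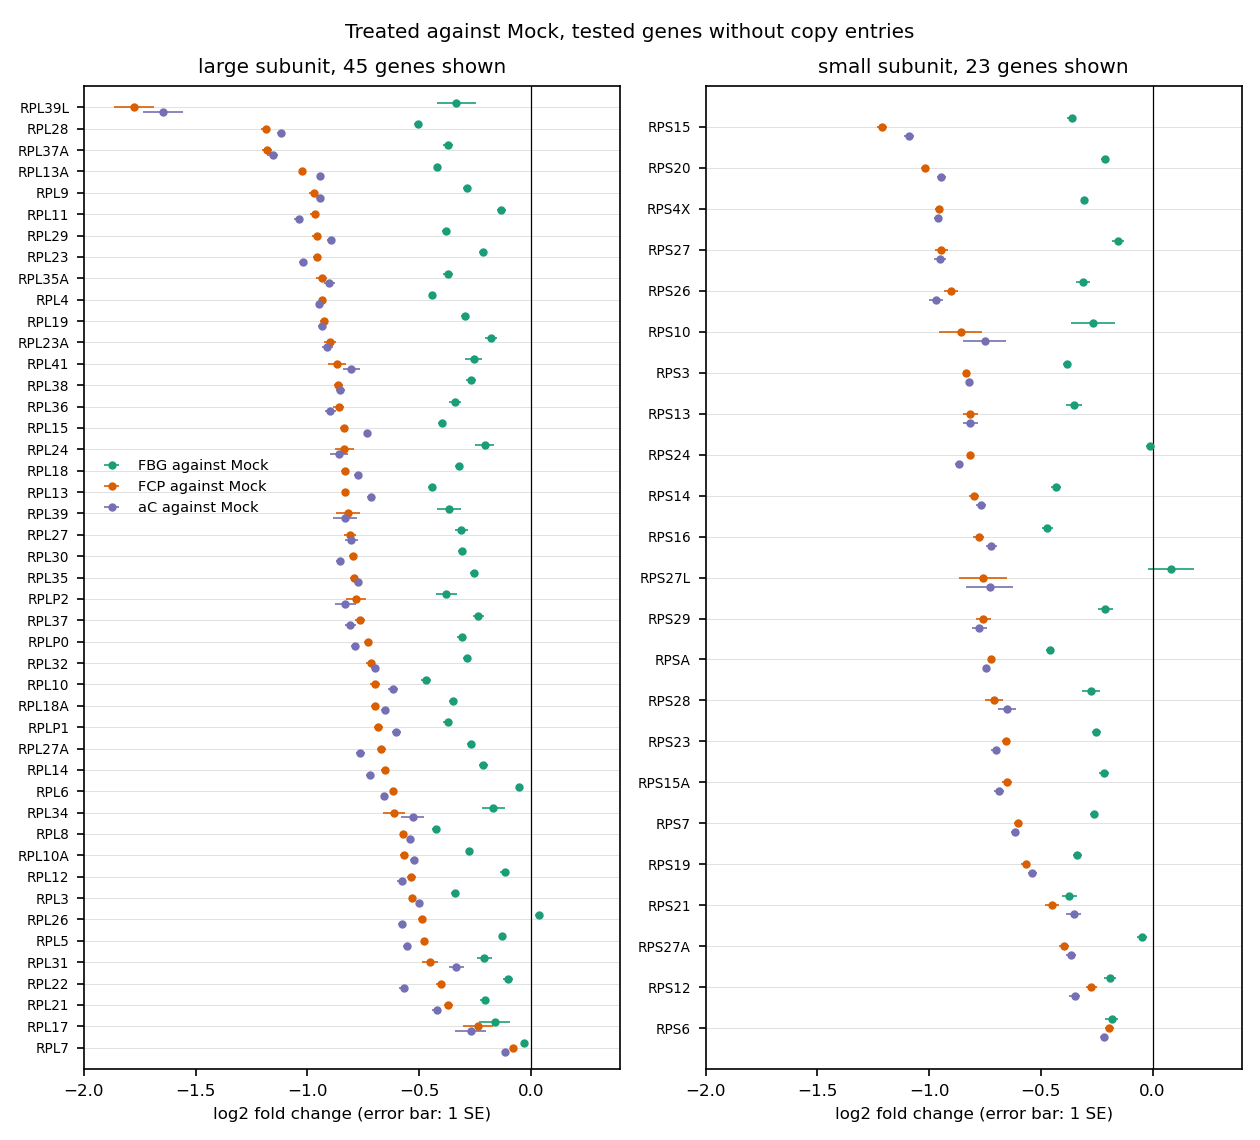
Log2 fold change against Mock (horizontal axis, error bars of 1 SE) of 45 large and 23 small subunit genes without copy entries, for FBG, FCP and aC cells. The FCP and aC points lie left of the FBG points for nearly all genes, RPL39L lies farthest left, and RPL7 and RPS6 lie nearest 0 in FCP and aC cells.

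RPL28, a large subunit protein absent from budding yeast, is encoded at chr19:55385932-55403342 on the plus strand (GRCh38.p14), where its exons overlap MIR6805. It measured 444 and 452 CPM in FBG cells, 283 and 275 CPM in FCP cells, 292 and 293 CPM in aC cells, and 643 and 628 CPM in Mock cells. No treated library reached a Mock library, and FCP and aC libraries lay below FBG. Its log2 fold change was -0.50 ± 0.0189 in FBG (SE, edgeR adjusted p = 8.25e-16), -1.19 ± 0.019 in FCP (adjusted p = 2.23e-23) and -1.12 ± 0.0189 in aC (adjusted p = 4.99e-23). RPS15 (chr19:1438396-1440495, plus strand), which sits in the head of the small subunit and is needed for its export from the nucleus, measured 390 and 396 CPM in FBG cells, 215 and 222 CPM in FCP cells, 239 and 236 CPM in aC cells, and 514 and 496 CPM in Mock cells. It showed the same order of groups without overlap, and fell by 1.21 in FCP and 1.09 in aC cells on the log2 scale (edgeR adjusted p = 1.81e-22 and 8.32e-22). RPL37A, a small zinc-binding protein of the large subunit, fell by 1.18 and 1.16, and RPL13A by 1.02 and 0.94, in FCP and aC cells. RPS20, a protein of the small subunit head, fell by 1.02 and 0.94.

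Among the genes with the smallest p-values in the small subunit, RPS4X, the X-linked copy of the S4 protein, fell by 0.95 in FCP and 0.96 in aC cells on the log2 scale (edgeR adjusted p = 1.14e-22 and 8.62e-23). RPS3, which lines the entry of the messenger RNA channel, fell by 0.83 and 0.82. In the large subunit RPL23, a protein of the interface to the small subunit, fell by 0.96 and 1.02 and RPL13 by 0.83 and 0.72. RPL6 had the smallest p-value in FCP and in aC, and its libraries hardly differed within groups, at 1422 and 1420 CPM in FBG, 958.5 and 964.2 CPM in FCP, 931 and 937 CPM in aC, and 1474 CPM in each Mock library. Its fall of 0.62 in FCP and 0.66 in aC cells carried a fitted SE of 0.0043, which is smaller than the error of counting alone. A fitted SE below the counting error occurred for 6, 4 and 3 of the 75 genes in FBG, FCP and aC against Mock, and 0 called genes had a 95% counting interval that included 0.

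**Figure D3:**
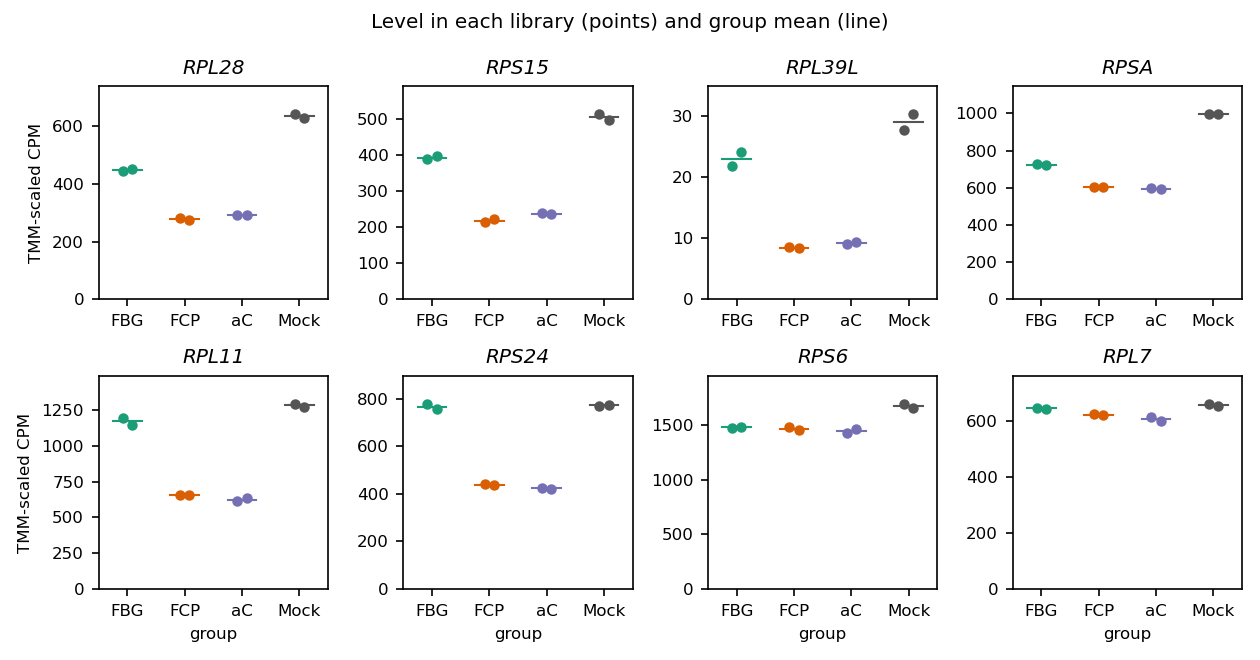
Level of 8 ribosomal protein genes in TMM-scaled CPM (vertical axis from 0) in each library (points) with the mean of the 2 libraries of a group (line). RPL28, RPS15, RPL39L and RPL11 were lowest in FCP and aC cells, RPS24 overlapped between FBG and Mock cells, and RPS6 and RPL7 varied least.

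A few genes moved far less than most in FCP and aC cells. RPS6 (chr9:19375715-19380236, minus strand) measured 1473 and 1482 CPM in FBG cells, 1478 and 1456 CPM in FCP cells, 1425 and 1461 CPM in aC cells, and 1695 and 1659 CPM in Mock cells. All treated libraries lay below Mock, and FCP overlapped both FBG and aC. RPS6 fell by 0.18 in FBG, 0.19 in FCP and 0.22 in aC cells (edgeR adjusted p = 0.00716, 0.000916 and 0.000539). Scaling by library size alone turned the FCP and aC values to 0.03 and 0.01, and the FBG value of -0.07 was not called (edgeR adjusted p = 0.118). Removing GC and length trends turned the FCP and aC values to 0.08 in both, while the FBG value was -0.24 and called lower. RPL7, an RNA-binding protein of the large subunit, measured 645 and 643 CPM in FBG, 624 and 622 CPM in FCP, 614 and 601 CPM in aC, and 661 and 654 CPM in Mock cells. Its fall of 0.08 in FCP cells (adjusted p = 0.000146) became a value of 0.14 with scaling by library size alone, and its aC value of -0.11 lies within the same shift between scalings. In FBG it was -0.03 (edgeR adjusted p = 0.151). RPL17, at the mouth of the exit tunnel, fell by 0.24 in FCP and 0.27 in aC cells, RPS12 by 0.27 and 0.35, and RPL21 by 0.37 and 0.42. With GC and length trends removed, RPS12 and RPL21 were called higher, by 0.26 and 0.16 in FCP cells and 0.21 and 0.14 in aC cells, and RPL17 had 0.10 and 0.09.

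Several of these genes lie on chromosomes whose other genes stood higher in FCP and aC cells. The median log2 fold change of the other genes on chromosome 9, the site of RPS6, RPL12, RPL35 and RPL7A, was 0.58 over 702 genes in FCP and 0.59 in aC cells against Mock, and 0.00 in FBG cells. On chromosome 6, the site of RPS12, RPL10A and RPS10, it was 0.48 and 0.49, with 0.12 in FBG. On chromosome 18, the site of RPL17, it was 0.43 and 0.47, with 0.15 in FBG. The other chromosome 9 members fell in FCP cells by 0.54 (RPL12) and 0.79 (RPL35), and the other chromosome 6 members by 0.57 (RPL10A) and 0.86 (RPS10). RPL7 and RPL21 lie on chromosomes 8 and 13. The part of chromosome position in these values was not tested.

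In FBG cells the strongest falls were those of RPL28 (0.50), RPS16 (0.47), RPL10 (0.47) and RPSA (0.46 on the log2 scale). RPSA, a small subunit protein that also occurs at the cell surface as the precursor of the laminin receptor, measured 727 and 724 CPM in FBG, 604.5 and 605.2 CPM in FCP, 597 and 594 CPM in aC, and 998 CPM in each Mock library. All treated groups lay below Mock without overlap, and RPSA fell by 0.46 ± 0.0147 in FBG (SE, edgeR adjusted p = 5.34e-17), 0.72 in FCP and 0.75 in aC cells. RPL13, RPL15 and RPS3 followed by p-value in FBG, with falls of 0.44, 0.40 and 0.38.

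For 6 genes without copy entries the FBG value did not pass the test while FCP and aC did: RPL7, RPL17, RPL26, RPS24, RPS27A and RPS27L. RPS24, a small subunit protein mutated in Diamond-Blackfan anaemia, measured 779 and 754 CPM in FBG, 441 and 437 CPM in FCP, 426 and 420 CPM in aC, and 771 and 773 CPM in Mock cells. FBG overlapped Mock, with a log2 fold change of -0.01 (edgeR adjusted p = 0.652), and FCP and aC lay far below both. The FCP and aC values were -0.82 and -0.87, and the direct tests against FBG gave -0.80 and -0.86 (adjusted p = 7.74e-21 and 2.04e-21). RPL26, a large subunit protein near the exit of the tunnel, had 0.03 in FBG (adjusted p = 0.0853) and fell by 0.49 and 0.58 in FCP and aC cells. RPS27A, made as a fusion of ubiquitin with a small subunit protein, had -0.05 in FBG, and the same gene had 0.07 with library size alone. Against FBG, RPL26, RPS24, RPS27A, RPS27L and RPL7 were called lower in both FCP and aC cells, and RPL17 in neither. With GC and length trends removed, RPL7 (-0.05 and -0.08 before) had 0.18 and 0.15 against FBG and RPL17 0.28 and 0.28, all called higher, and RPS27A had 0.01 in FCP, not called, and 0.07 in aC cells, called higher. In that fit RPS27A was not called in FCP or aC cells against Mock (-0.04 and 0.02), while RPS24 (-0.16), RPL7 (-0.25) and RPL17 (-0.18) were called lower in FBG against Mock, and RPL26 (0.09) was called higher.

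Compared directly with FBG, FCP cells had 69 of 75 genes called lower and 1 higher, where 66.8% of all tested genes were called, 34.2% lower and 32.6% higher. In aC cells 68 were lower and 0 higher, against 68.3%, 34.5% lower and 33.8% higher. With library size alone the counts were 65 and 3 in FCP (28.2% and 38.9% of all tested genes) and 63 and 2 in aC cells (28.7% and 40.1%). The median log2 fold changes were -0.45 and -0.48. These comparisons share the FBG libraries, as the comparisons above share the Mock libraries. RPL11 fell by 0.84 in FCP and 0.91 in aC cells against FBG, and RPL23 by 0.74 and 0.81, while RPS6 had -0.01 and -0.03 (edgeR adjusted p = 0.722 and 0.23) and RPSA fell by 0.26 and 0.28. With GC and length trends removed both were called higher than in FBG, RPS6 by 0.32 and 0.32 and RPSA by 0.11 and 0.12.

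FCP and aC cells were close to each other. In aC against FCP, 7 of 75 genes were called lower and 10 higher, where 9.01% of all tested genes were called, 4.45% lower and 4.57% higher, and the median was 0.00 on the log2 scale. By DESeq2, and in edgeR without aC replicate 1, 5 genes were higher. In edgeR 12 were lower without FBG replicate 1 and 4 without aC replicate 2, and without a count filter 15 were lower. With library size alone 5 were lower and 14 higher (3.52% and 5.08% of all tested genes), and with GC and length trends removed 8 and 9 (6.7% and 5.17%). RPL22 fell most, with 271.9 and 272.0 CPM in aC cells against 306 and 303 CPM in FCP cells, a log2 fold change of -0.16 ± 0.0198 (SE, edgeR adjusted p = 4.51e-06) and no overlap. RPL26 and RPL5 fell by 0.09 and 0.08. RPL13 rose to 682 and 675.5 CPM in aC cells, against 631.5 and 624 CPM in FCP cells, by 0.11 ± 0.0149 (edgeR adjusted p = 1.64e-05) and without overlap. Among the other called genes, RPL15 rose by 0.11, RPS15 by 0.12, RPLP1 by 0.08 and RPS20 by 0.07, and the calls of RPLP1, RPS20 and RPL6 were lost under DESeq2 (adjusted p = 0.101, 0.0761 and 0.0908). All 7 lower calls were in the large subunit, whose other calls were 7 higher, and the small subunit had 3 higher. For 22 of the 75 genes the aC and FCP libraries overlapped, a count given without the share over all tested genes.

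By role, the proteins of the P stalk, which recruits the elongation factors, all fell. RPLP0, the base of the stalk, measured 1355 and 1306 CPM in FBG, 1001 and 989 CPM in FCP, 952 and 958 CPM in aC, and 1662 and 1635 CPM in Mock cells, and fell by 0.31, 0.73 and 0.79. RPLP1 fell by 0.37, 0.68 and 0.60, and RPLP2 by 0.38, 0.78 and 0.83, in FBG, FCP and aC cells against Mock. The call of RPLP2 in FBG was lost with GC and length trends removed (-0.06, edgeR adjusted p = 0.195). In that fit RPLP0, RPLP1 and RPLP2 had -0.16, -0.18 and -0.25 in FCP and -0.23, -0.08 and -0.33 in aC cells against Mock, all called lower. Against FBG in that fit, RPLP1 was called higher in FCP (0.08) and aC cells (0.18), while RPLP0 and RPLP2 were called lower in both.

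RPL5 and RPL11 bind the 5S ribosomal RNA, and outside the ribosome they bind and inhibit MDM2. RPL11 measured 1196 and 1142 CPM in FBG, 653 and 657 CPM in FCP, 614 and 633 CPM in aC, and 1293 and 1270 CPM in Mock cells, falling by 0.13, 0.97 and 1.04. RPL5 measured 865 and 854 CPM in FBG, 679 and 670 CPM in FCP, 643 and 634 CPM in aC, and 942 and 936 CPM in Mock cells, falling by 0.13, 0.48 and 0.56. In FBG cells neither was called with library size alone (-0.01 for RPL5 and -0.02 for RPL11). With GC and length trends removed, RPL5 had -0.39 and RPL11 -0.01 in FBG cells, where only RPL5 was called, and the values were close in FCP cells (-0.46 and -0.44) and in aC cells (-0.54 and -0.50). For both genes FBG, FCP and aC libraries all lay below Mock. MDM2 itself, a ubiquitin ligase, was called higher by 0.53 in FBG, 0.85 in FCP and 0.86 in aC cells.

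Near the peptidyl transferase centre, RPL3 fell by 0.34, 0.53 and 0.50 and RPL10, which joins the subunit late, in the cytoplasm, by 0.47, 0.70 and 0.62, in FBG, FCP and aC cells. With GC and length trends removed, RPL3 had 0.02 in both FCP and aC cells. Among the shortest proteins of the large subunit, RPL39 fell by 0.37, 0.82 and 0.83 and RPL41 by 0.26, 0.87 and 0.80 in the same order of treatments. Of genes of the ribosome whose symbols do not follow the naming pattern, RACK1, a scaffold on the small subunit, measured 1840 and 1850 CPM in FBG, 1414 and 1400 CPM in FCP, 1469 and 1462 CPM in aC, and 2331 and 2330 CPM in Mock cells, and fell by 0.34, 0.73 and 0.67. FAU, made as a fusion with a ubiquitin-like protein, fell by 0.29, 0.87 and 0.83.

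Several genes are paralogs of other ribosomal protein genes. RPL39L (chr3:187120948-187139496, minus strand), a paralog of RPL39 enriched in testis that lines the exit tunnel, measured 21.8 and 24.1 CPM in FBG, 8.47 and 8.43 CPM in FCP, 9.09 and 9.39 CPM in aC, and 27.6 and 30.3 CPM in Mock cells. FCP and aC libraries lay below all others, and the log2 fold changes of -1.78 ± 0.0903 in FCP (SE, edgeR adjusted p = 3.51e-14) and -1.65 ± 0.0896 in aC cells (adjusted p = 1.16e-13) were the largest falls among the tested ribosomal protein genes. Its fall of 0.33 in FBG was not called without FBG replicate 1 (-0.26, adjusted p = 0.0529). RPL22L1, the paralog of RPL22, had 64.6 and 63.3 CPM in FBG, 25.2 and 24.5 CPM in FCP, 23.98 and 23.73 CPM in aC, and 62.1 and 61.2 CPM in Mock cells. It fell by 1.31 in FCP and 1.37 in aC cells and had 0.05 in FBG (edgeR adjusted p = 0.403). RPL22 itself fell by 0.10, 0.40 and 0.57, although it had 0.01 in FBG with library size alone, and 0.01 in FBG and 0.00 in FCP cells with GC and length trends removed.

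RPS27L, the paralog of RPS27, measured 17.3 and 15.8 CPM in FBG, 9.83 and 8.64 CPM in FCP, 9.73 and 9.14 CPM in aC, and 15.3 and 15.9 CPM in Mock cells. It had 0.08 in FBG and fell by 0.76 and 0.73 in FCP and aC cells, where RPS27 fell by 0.94 and 0.95. RPL26L1 rose by 0.23 in FBG cells (edgeR adjusted p = 0.000427) and fell by 0.62 and 0.65 in FCP and aC cells. RPL36AL had 0.05 in FBG and fell by 0.56 and 0.68, and RPL7L1 fell by 0.14, 0.26 and 0.28. RPL36A had 0 to 6 counts per library, and its exons overlap those of the readthrough gene RPL36A-HNRNPH2, so its level could not be read. RPL17 and RPS10 also share exons with a readthrough gene. In all, 22 of the 81 genes overlap exons of another gene, 16 of them on the opposite strand, and the counting shows no strand option, so reads of such pairs cannot be told apart. Of the 53 tested genes with neither an overlap nor a copy entry, 48 were called lower in FBG, 53 in FCP and 53 in aC cells, with medians of -0.29, -0.78 and -0.77.

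Some genes have further entries in the count files, with the same symbol and a suffix for a second copy. The 8 genes with such entries include RPL3L, RPL7A, RPS2, RPS3A, RPS9, RPS18 and RPS25, and 4 of the 8, RPS3A, RPL7A and RPS2 among them, had enough counts to be tested. RPS3A had 3314 and 6 counts in FBG, 7 and 6 in FCP, 8 and 15 in aC, and 7 and 7 in Mock libraries, and its copy entry had 18 and 20 counts in FBG, 37 and 31 in FCP, 27 and 2724 in aC, and 19 and 30 in Mock. A single FBG library and a single aC library thus held nearly all of its counts, in different entries. Its fitted log2 fold change of 7.89 in FBG (edgeR adjusted p = 0.112) became -0.20 without FBG replicate 1. With both FBG libraries it was called higher by DESeq2 (7.88, DESeq2 adjusted p = 0.000196).

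The copy entry of RPL7A had 19 and 23 counts in FBG, 4728 and 4402 in FCP, 49 and 54 in aC, and 19 and 27 in Mock libraries, while its own entry had 11 to 25 counts throughout. The copy entry of RPS2 had 20 and 7522 counts in FBG, 2377 and 2344 in FCP, 2110 and 39 in aC, and 28 and 34 in Mock. For RPS25 the copy entry had 4720 counts in FBG replicate 2 and 18 to 93 in the other libraries. For RPS3A, RPS2 and RPS25, counts moved between entries or nearly vanished between libraries of a single group, so the values of genes with copy entries are uncertain.

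**Figure D4:**
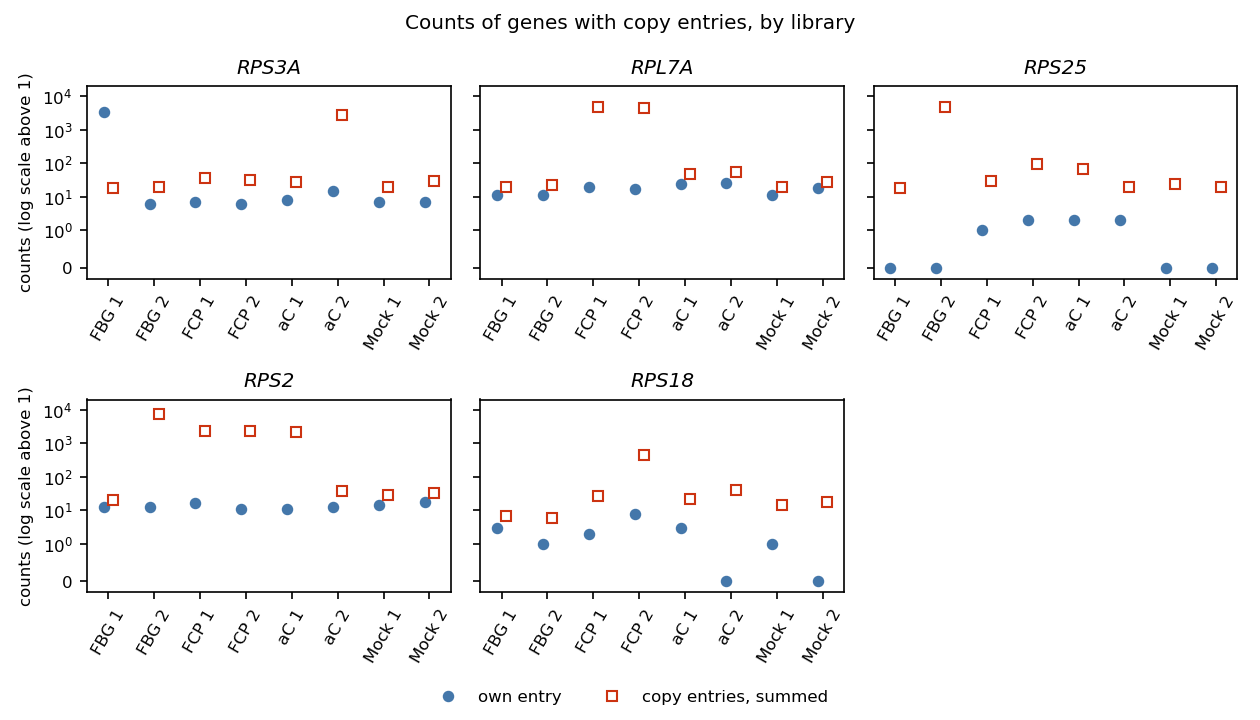
Counts (vertical axis, log scale above 1) of 5 genes in their own entry (filled circles) and in their copy entries summed (open squares) in each of the 8 libraries. RPS3A has 3314 counts in its own entry in FBG replicate 1 and 2724 in its copy in aC replicate 2, and the RPL7A copy has 4728 and 4402 counts in the FCP libraries.

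The lists of other parts of the translation machinery are read against the shares of all tested genes, 26.3% lower and 24.2% higher in FBG, 36.1% and 37.3% in FCP cells, and 36.7% and 38.0% in aC cells. Of 73 tested mitochondrial ribosomal protein genes, 49 were called lower and 6 higher in FBG, 64 and 2 in FCP cells, and 66 and 2 in aC cells, with medians of -0.26, -0.65 and -0.65. MRPL37 fell by 1.00 and MRPL17 by 1.38 in FCP cells on the log2 scale. Of 24 other genes described as having TOP messages, 16 were lower and 6 higher in FBG, 17 and 3 in FCP cells, and 17 and 2 in aC cells, with medians of -0.13, -0.42 and -0.44. VIM, also a mesenchymal marker, fell by 1.42 and 1.53 in FCP and aC cells, and EIF3A rose by 0.97 in both. The elongation factor EEF1A1 fell by 0.30, 0.24 and 0.22 in FBG, FCP and aC cells, and its aC value lies within the shift between the scalings.

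Among 33 ribosome biogenesis genes, 17 were lower and 10 higher in FBG, 22 and 7 in FCP cells, and 25 and 6 in aC cells, with medians of -0.17, -0.31 and -0.28. MRTO4, a large subunit assembly factor, fell by 0.91 and NOP16 by 0.94 in FCP cells. Among 13 RNA polymerase I genes, 8 were lower and 2 higher in FBG, 7 and 3 in FCP cells, and 7 and 3 in aC cells, and the polymerase I factor UBTF fell by 0.79 in FCP cells. Of 25 translation initiation genes, 12 were lower and 9 higher in FBG, 15 and 7 in FCP cells, and 17 and 6 in aC cells, with medians of 0.00, -0.36 and -0.42. EIF5B rose by 1.02 in FCP and EIF4G3 by 1.01, in a list where most called genes were lower. Of 18 regulators of ribosomal protein genes, 9 were lower and 4 higher in FBG, 12 and 6 in FCP cells, and 12 and 6 in aC cells. MYC, which drives ribosome production, averaged 98.6 CPM in FBG, 220.5 CPM in FCP, 237.2 CPM in aC and 248.7 CPM in Mock cells. It fell by 1.34 in FBG (edgeR adjusted p = 7.52e-20), and its values of -0.17 in FCP and -0.07 in aC cells lie within the shift between the scalings. EIF4EBP1, the translation repressor that mTOR phosphorylates, fell by 1.14 and 1.05 in FCP and aC cells.

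Counts and medians of several of these lists moved under other settings. With library size alone, the biogenesis genes in FCP cells were 15 lower and 13 higher (median -0.09). The polymerase I genes were 6 and 4 (-0.02) and the regulators 8 and 7 (-0.0047), where 27.6% of all tested genes were lower and 47.1% higher. The median of all genes was 0.28 with this scaling. Relative to it the lists stood at -0.36, -0.30 and -0.28 in that order, as with TMM. A change of scaling shifts all genes nearly alike. With GC and length trends removed, the biogenesis genes were 14 lower and 11 higher (median -0.03) and the regulators 10 and 3 (-0.17). Of 11 polymerase I genes in that fit, 7 were lower and 2 higher (-0.34). Of all genes 41.4% were lower and 34.2% higher there, with a median of -0.05. The mitochondrial ribosomal genes were 55 lower and 9 higher with library size alone, and 52 and 7 with the trends removed.

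Ribosomal protein transcripts are short and abundant, and fold changes in these libraries varied with GC content, length and level. The tested ribosomal protein genes had a median exon length of 1127 bases, against 1570 for the mitochondrial ribosomal genes and 4128 for all tested genes, and a median GC content of 47.9%, against 47.6% and 48.0%. Length was that of all annotated exons, 7472 bases for RPS29, and GC content that of the longest annotated transcript. Neither need be that of the message in these cells, and the fit with trends removed used both. Over all tested genes the Spearman correlation of the log2 fold change was -0.41 with GC content and 0.17 with length in FBG, -0.27 and 0.21 in FCP cells, and -0.24 and 0.20 in aC cells (n = 13569 for GC and 16307 for length). With level, the mean CPM of a gene, the correlation over all tested genes was -0.22 in FBG, -0.32 in FCP and -0.33 in aC cells. No fit removed this trend with level, and its part in the falls was not tested. Over the 71 ribosomal protein genes without copies the correlation was -0.55 with GC content in FBG, -0.15 in FCP and -0.08 in aC cells. With level it was -0.05, 0.06 and 0.01 over these genes. These are correlations across genes of the same libraries, and genes are not independent replicates.

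With the trends of GC content and length removed within each library, 51 genes were called lower and 3 higher in FBG, 60 and 6 in FCP cells, and 60 and 5 in aC cells, where 28.1%, 41.4% and 42.5% of the 13569 genes with a GC value were called lower and 21.9%, 34.2% and 34.8% higher. The medians were -0.13, -0.32 and -0.33 in this fit. The mitochondrial ribosomal genes had medians of -0.14, -0.33 and -0.36 in this fit. Against FBG the counts were 52 lower and 12 higher in FCP (38.6% and 32.1% of all genes with a GC value) and 51 and 15 in aC cells (39.7% and 32.8%). The part of GC content and length in the falls, as opposed to the genes' own change, cannot be told apart from these values.

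**Figure D5:**
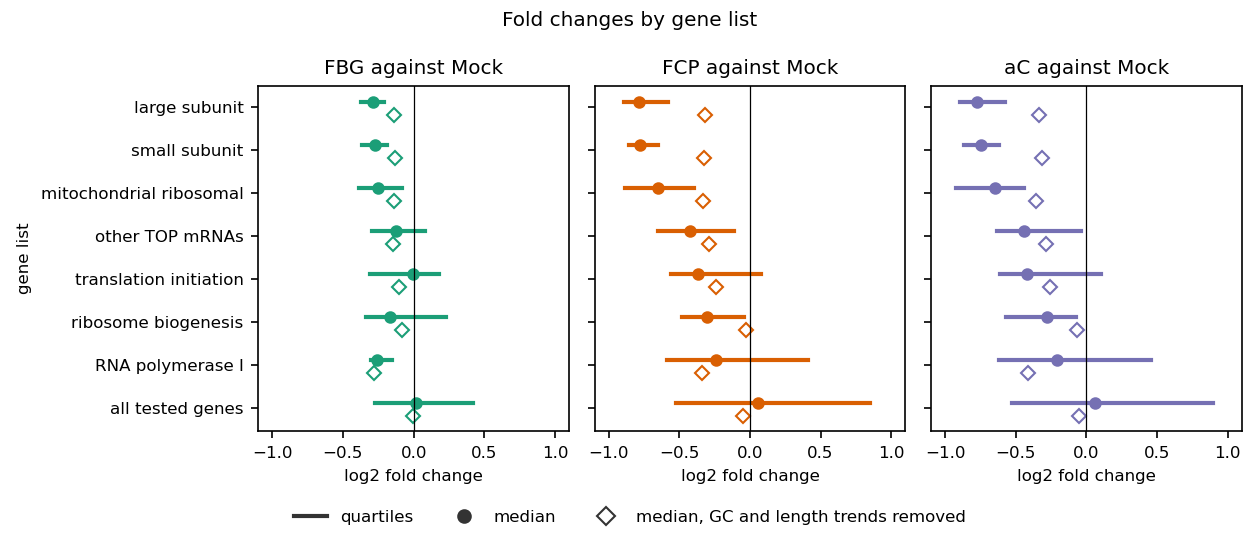
Log2 fold change against Mock (horizontal axis) by gene list, with the median (filled circle), the quartiles (bar) and the median after GC and length trends were removed (open diamond), for FBG, FCP and aC cells. Both subunits of the cytosolic ribosome have medians of -0.79 and -0.78 in FCP cells and -0.32 and -0.33 with the trends removed, and all tested genes lie at 0.06 and -0.05.

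Genes with and without the pyrimidine run at the annotated start base had similar medians. The 40 tested genes without copies that have the run had medians of -0.29, -0.79 and -0.77 in FBG, FCP and aC cells, and the 17 without it -0.29, -0.76 and -0.73. In some of the 17, RPL10A and RPL4 among them, a run of pyrimidines lies a few bases after the annotated start. The split therefore does not separate TOP messages from others. The share of genes with the run was 81.2% (13 of 16) in the other TOP list and 8.7% among mitochondrial ribosomal genes. The core of the ETS factor motif, CGGAAG on either strand in the 250 bases before the start, was in 55.7% of the 79 ribosomal protein promoters, in 47.1% of the mitochondrial ribosomal promoters and in 16.5% of all 35116 promoters. It stands in the printed windows of RPS6 and RPS27L. The motif TATAAA was in 7.59% of the ribosomal protein promoters and 10.7% of all promoters. These motifs cannot overlap each other, and a match is a description of the letters and not of a bound factor.

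Libraries of a group agreed closely for these genes. Over the 71 tested genes without copies, the variance between the 2 libraries of a group was 2.23 times that of counting in FBG, 1.95 in FCP, 1.87 in aC and 1.65 in Mock, and the median absolute log2 difference between them was 0.021 to 0.028. The libraries therefore differed by more than sampling noise and were kept as 2 each. The median counting error of a log2 fold change was 0.017 against Mock.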

How the data were processed

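RNA from 8 BEAS-2B libraries was sequenced, 2 for each of FBG, FCP, aC and Mock. The deposited values are whole read counts per gene, made with featureCounts 1.6.0 on read pairs and exons of GRCh38.p14, per the file headers, which show no option for strand or for reads with several matches. The submitters' processing notes name Trimmomatic 0.39, HISAT2 2.2.1, SAMtools 1.9 and featureCounts 1.6.2, without roles. The labels' protocols give column extraction, enrichment of mRNA and random primers. Total counts were 15137196 to 22258791 per library, and 3 counts correspond to 0.135 to 0.198 CPM. Counting intervals and floors cover counting error only, because reads are not independent molecules.

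All 8 libraries were fitted with edgeR 4.0.16 in R 4.3.3 (filterByExpr with a minimum count of 10, TMM, robust quasi-likelihood test, 4 residual degrees of freedom), and p-values were adjusted by Benjamini-Hochberg over 16307 genes in each of 6 comparisons. An adjusted p under 0.05 was a call. The biological coefficient of variation was 0.102. An exact permutation test of 2 against 2 libraries cannot go below 0.333. Alternatives were DESeq2 1.42.0, library size alone, no filter, copy entries summed, a replicate block, GC and length trends removed with splines of 5 degrees of freedom (GC from GENCODE release 29), and leaving out each library. Replicate numbers did not pair the samples.

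The members and lists were chosen with earlier results of these data known. Named genes were, by comparison and subunit, the 3 called with the smallest p-values in each direction, the 2 largest changes each way, the extremes of level per length, genes picked by role, genes with copy entries or no counts, and those on chromosome 9, and the 2 genes of each other list with the smallest p-values. RPL37A, RPL13A, RPL17, RPS12, RPL21, RPS24, RPL26, RPL10A, RPS10, EEF1A1 and MYC, and the 10 genes whose starts are printed, were named after their values were seen. Starts came from RefSeq. Some genes that the rule names are not reported here, and the counts include them.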

Additional observations from a re-analysis of the deposited data

How the results depend on the processing

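Calls rest on 2 libraries a group, and the counting error of a log2 fold change had a median of 0.017 to 0.018. Under the replicate block, all 12 counts of lower and higher genes stayed within 1.5 times and no call of a named gene changed (RPS6 in FCP against Mock stayed at -0.1928). The replicate numbers share only a number, since deviations of same-numbered libraries correlated at -0.0749 to 0.0652 over 11276 genes. The cause of the following changes was not tested.

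The number of higher genes was 5 (library size only), 1 (DESeq2) and 3 (GC and length trends removed) in FBG against Mock. It was 2, 6 (trends removed) and 2 (copies summed) in FCP against Mock, where the first value is for library size only. In aC against Mock it was 1 (library size only), 1 (no filter) and 5 (trends removed). In FCP against FBG it was 3 (library size only), 12 (trends removed) and 2 (copies summed), and in aC against FBG 2, 1 (no filter), 15 (trends removed) and 1 (copies summed). In aC against FCP 15 genes were lower without a filter and 5 higher by DESeq2. Leaving out each library gave 63 to 66, 70 to 71 and 71 to 72 lower genes in FBG, FCP and aC against Mock, 66 to 69 and 68 to 69 in FCP and aC against FBG, and 4 to 12 lower and 5 to 11 higher in aC against FCP. Higher genes numbered 0 to 1 in the other 5 comparisons.

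With copy entries added, the share was 3.759% in FBG, 2.969% in FCP and 2.963% in aC, and the ratio of large to small subunit counts 2.437 in FBG, 2.457 in FCP, 2.432 in aC and 2.561 in Mock. Per length, the share was 9.104% in FBG, 7.825% in FCP, 7.929% in aC and 9.808% in Mock, and the ratio 2.351, 2.271, 2.256 and 2.318.

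Signs turned as follows on the log2 scale. With library size only, RPL22 (0.0109) and RPS27A (0.0677) in FBG, RPL7 (0.1422) and RPS6 (0.0282) in FCP, and RPS6 (0.0138) in aC against Mock were above 0. With trends removed this held for RPL22 (0.015) in FBG, RPS6 (0.0775), RPL3 (0.0191) and RPL22 (0.003) in FCP, and RPS6 (0.0762), RPL3 (0.0246) and RPS27A (0.0217) in aC, and RPS27L was -0.0462 in FBG. Of genes with copy entries, leaving out each library gave -0.2034 (without FBG replicate 1) to 8.8804 for RPS3A in FBG against Mock and -8.8324 to 0.2516 (without FBG replicate 1) in aC against FBG. It gave -0.222 (without Mock replicate 1) to 0.4835 for RPL7A in aC against Mock, and -0.4582 to 0.0777 (without FCP replicate 1) for RPS2 in aC against FCP. RPL7A was -5.9572 in aC against FCP with copies summed.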
